A study of Mus musculus with 6 samples.

Results

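Gpnmb and 9 genes that mark lipid-associated macrophages were followed in the livers of fasted mice that lack Cpt2 in hepatocytes and of their controls. A gene was represented by the probe set (a row of deposited values) that the platform annotation assigns to that gene and no other, and, where several did, by whichever averaged highest across the 6 arrays. Of the 10 genes, 8 were measured in this way, out of 20242 genes with such a probe set. These were Gpnmb, Trem2, Cd14, Cd9, Cd68, Atp6v0d2, Lgals3 and Mmp12. Spp1 was not analysed here, and the probe set naming Itgax also names Slc25a51, so that Itgax was not counted.

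The knockout group (Cpt2KO) comprised 3 mice carrying Albumin-Cre together with the floxed Cpt2f/f alleles, and the control group (WT) comprised 3 mice carrying Cpt2f/f without the transgene. All 6 were C57BL/6 males, and all were fasted for 24 hours. The listed ages are 12, 13 and 14 weeks in Cpt2KO mice and 9, 10 and 11 weeks in WT mice, whereas the growth protocol gives 9 weeks for all. Total liver RNA from each mouse was hybridised to 1 Affymetrix exon array. The albumin promoter drives Cre in hepatocytes, so macrophages of both groups keep the floxed gene intact, and Cpt2, the inner-membrane enzyme of the carnitine shuttle, was read in whole tissue. Its log2 values were 6.48, 6.73 and 6.75 in Cpt2KO livers, against 7.56, 7.72 and 7.63 in WT livers.

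Lipid-associated macrophages take up lipid from dying or lipid-laden cells and break it down in lysosomes, and they gather in fatty liver and obese fat tissue. TREM2, a surface receptor that senses lipids and signals through the adaptor TYROBP, is central to the state. GPNMB is a transmembrane glycoprotein of lysosomes and the cell surface, and its gene is a target of the MiT/TFE transcription factors (MITF, TFEB, TFE3 and TFEC), which switch on lysosomal genes. Several of the set are not restricted to these cells: cholangiocytes make osteopontin (Spp1), CD9 is found on many cell types, and hepatocytes can make CD14.

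The comparison of Cpt2KO with WT livers asked whether the set as a whole was higher where Gpnmb was. Gpnmb was 10.2-fold higher in Cpt2KO livers, and Cd68, Lgals3, Cd14 and Cd9 were higher too, by 4.98-fold to 1.63-fold. Trem2 and Mmp12 moved little, and Atp6v0d2 was 2.59-fold lower. The lower group was dim for Gpnmb (WT) and for Atp6v0d2 (Cpt2KO), so the sizes of these fold changes are uncertain. The set was chosen by its differences between Cpt2KO and WT in these same arrays, Gpnmb being among the largest increases, so the members' values are given as a description and without tests. In the limma fit over all genes, 5 of the 8 measured members lay past an adjusted p of 0.05 on the higher side and 1 on the lower side. Of all 20242 genes, 4.74% lay past it on the higher side and 3.49% on the lower side (8.24% in all). A mean difference above 0 was found in 6 of the 8 members and in 48% of all genes. The median log2 fold change of the 8 members was 0.90, beside -0.01 over all genes.

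Promoter sequences of 8 of the 10 genes, all but Cd14 and Atp6v0d2, were found in the RefSeq promoter table (GRCm38.p6). Its windows run from 250 bases before to 50 bases after each gene's start. Each window was searched on both strands for 4 short motifs. These were the E-box CACGTG and the M-box TCATGTG, which MiT/TFE factors bind, the AP-1 motif TGANTCA, and the ETS motif GAGGAAGT, of the kind the macrophage factor PU.1 binds. No overlap between motifs occurred in the windows printed here. Windows of Gpnmb, Cd68 and Lgals3, the members with the largest increases, are shown with that of Trem2, which moved little, each from 250 bases before the start to 30 bases after it, with AP-1 matches in capitals. They lie on chromosome 6 (chr6:49036268-49036547, plus strand), chromosome 11 (chr11:69666141-69666420, minus strand), chromosome 14 (chr14:47373610-47373889, plus strand) and chromosome 17 (chr17:48346151-48346430, plus strand).
Gpnmb: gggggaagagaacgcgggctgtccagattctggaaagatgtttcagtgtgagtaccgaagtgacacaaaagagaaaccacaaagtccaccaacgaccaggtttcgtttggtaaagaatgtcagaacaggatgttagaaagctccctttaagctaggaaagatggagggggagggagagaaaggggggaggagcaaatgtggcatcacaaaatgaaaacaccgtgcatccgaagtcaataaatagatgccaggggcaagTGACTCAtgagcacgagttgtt
Cd68: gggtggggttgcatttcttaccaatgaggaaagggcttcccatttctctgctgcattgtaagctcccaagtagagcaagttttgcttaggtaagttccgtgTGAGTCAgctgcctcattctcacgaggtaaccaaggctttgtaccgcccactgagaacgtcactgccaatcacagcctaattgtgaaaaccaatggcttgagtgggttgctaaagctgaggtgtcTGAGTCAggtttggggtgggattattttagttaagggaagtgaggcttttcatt
Lgals3: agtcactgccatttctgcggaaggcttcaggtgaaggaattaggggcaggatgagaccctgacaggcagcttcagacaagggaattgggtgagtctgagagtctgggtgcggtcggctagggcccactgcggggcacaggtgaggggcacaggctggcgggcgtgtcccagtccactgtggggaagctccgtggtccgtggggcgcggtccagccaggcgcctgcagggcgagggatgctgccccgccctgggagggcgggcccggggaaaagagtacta
Trem2: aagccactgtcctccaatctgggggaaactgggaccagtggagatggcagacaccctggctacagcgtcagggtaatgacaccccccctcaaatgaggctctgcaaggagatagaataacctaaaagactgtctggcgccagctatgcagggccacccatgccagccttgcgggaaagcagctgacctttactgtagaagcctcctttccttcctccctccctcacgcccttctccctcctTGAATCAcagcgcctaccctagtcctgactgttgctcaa

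In Gpnmb the AP-1 match, TGACTCA, begins at base 9 of the transcript. Cd68 holds the match TGAGTCA at 149 and again at 24 bases before the start, and Trem2 holds TGAATCA at 9 bases before it. No match to any of the 4 motifs was found in the 300-base windows of Lgals3 and Cd9. Across the set, 5 of 8 genes had an AP-1 match in a window (Gpnmb, Cd68, Trem2, Mmp12 and Itgax), and 7.81% of all 32851 windows in the table had one. The 8 genes hold 10 windows, with 2 each for Spp1 and Mmp12. Counts here are per gene and shares are per window, so they are not the same measure. An ETS match was found in Spp1 and in 1 of the Mmp12 windows (3.2% of all windows), and an M-box in the other Mmp12 window (3.77%). An E-box was found in 0 of the 8 genes (7.15% of all windows). The AP-1 letters were thus present both in genes that were higher in Cpt2KO livers and in genes that were not, and a match does not show that a factor binds there.

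Gpnmb, the surface and lysosomal glycoprotein after which the set is named, had log2 values of 6.93, 6.66 and 6.79 in Cpt2KO livers, against 3.47, 3.52 and 3.34 in WT livers. The groups were far apart, and the arrays within each lay close together. The WT values lay below the median level of genes, 4.12, so the size of the fold change is uncertain without detection calls. The mean was higher by 3.35 on the log2 scale (SE 0.11), or 6.79 ± 0.14 in Cpt2KO livers and 3.44 ± 0.09 in WT livers (SD, n = 3 each). The difference ranged from 3.28 to 3.42 over the alternatives without listed age, and was 3.55 (SE 0.23) with listed age as a covariate.

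**Figure D1:**
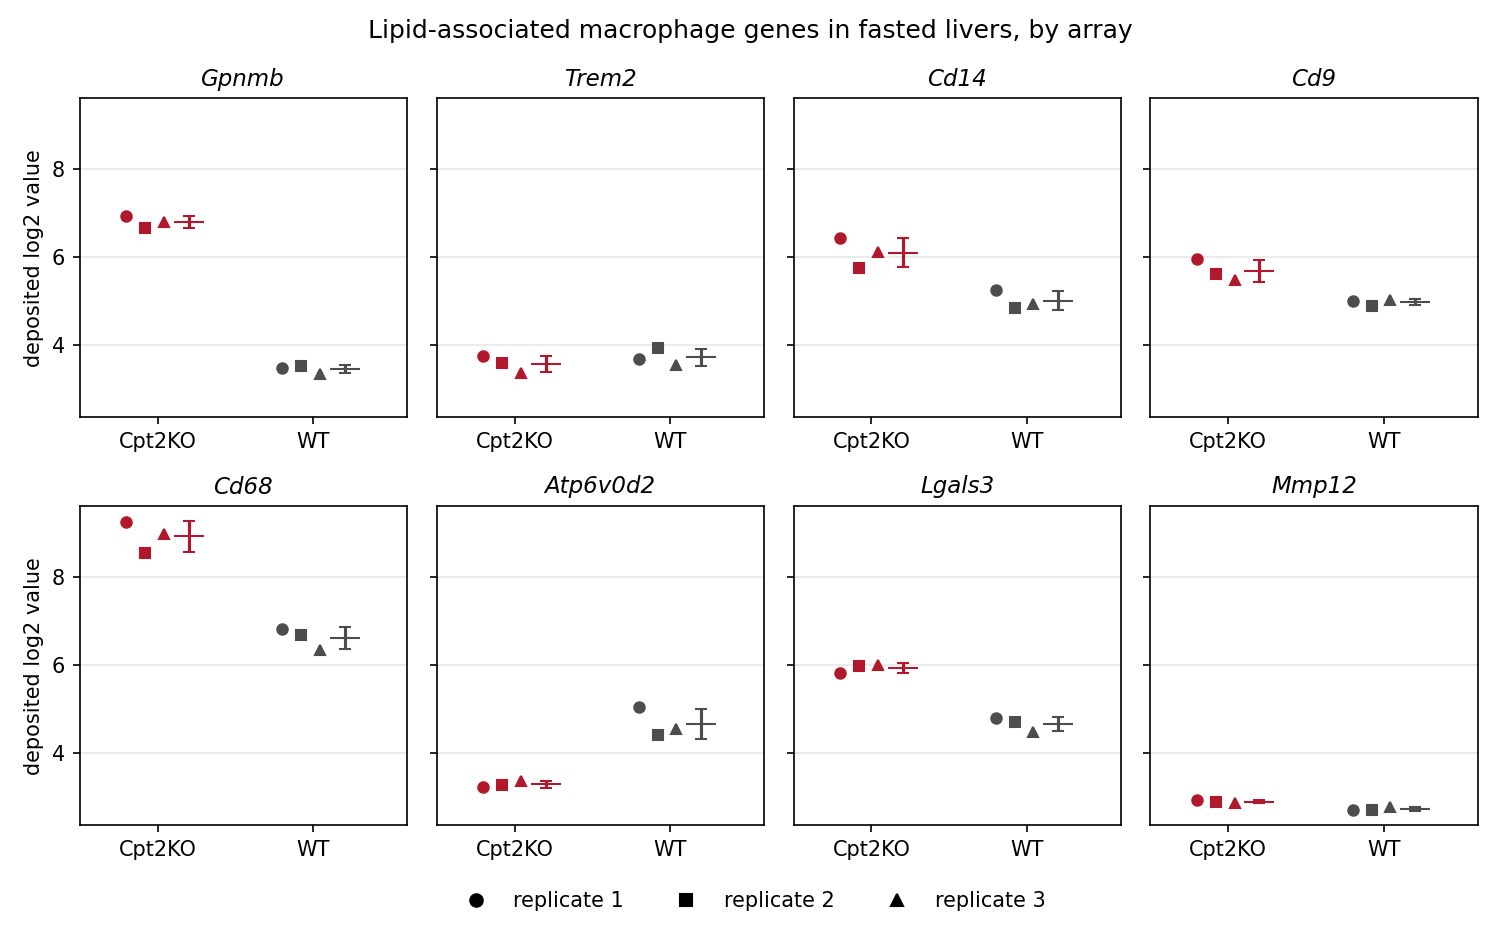
Deposited log2 values (y axis) of the 8 measured genes in the 3 Cpt2KO livers (red, left) and the 3 WT livers (grey, right). Points are arrays, with 1 symbol per replicate number, and the bar beside them is the mean ± SD. Gpnmb, Cd68, Cd14, Cd9 and Lgals3 are higher in each Cpt2KO liver than in each WT liver, Atp6v0d2 is lower in each, and the groups of Trem2 overlap.

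Trem2, the lipid receptor, did not follow Gpnmb. Its log2 values were 3.74, 3.59 and 3.36 in Cpt2KO livers, against 3.67, 3.93 and 3.55 in WT livers. The groups overlapped, and the mean difference was -0.15 (SE 0.14). All these values lay below the median level of genes, 4.12. Without detection calls, a change in so dim a signal could go unseen. With listed age as a covariate the difference was 0.22 (SE 0.27), on the other side of 0.

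Of the genes around TREM2, 0 of 18 measured passed an adjusted p of 0.05 by limma in either direction, and 2 had an unadjusted p under 0.05. The share of all genes under that unadjusted cut-off was not worked out, so such counts, here and for the lists below, are descriptions only. List counts of calls and of signs stand beside the shares of all genes: 4.74% called higher, 3.49% called lower and 48% above 0. The list held the other TREM receptors, the adaptors and the kinases and phospholipase downstream, and its median log2 fold change was -0.10. Tyrobp, the adaptor, had log2 values of 4.21, 4.41 and 4.56 in Cpt2KO livers, against 4.55, 4.68 and 4.42 in WT livers, which overlap. The largest difference in the list was that of Blnk, an adaptor of B-cell receptor signalling, at 0.41 on the log2 scale (adjusted p = 0.101 by limma).

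Cd14 encodes the surface and soluble co-receptor that hands endotoxin to TLR4. It had log2 values of 6.42, 5.75 and 6.11 in Cpt2KO livers, against 5.25, 4.83 and 4.94 in WT livers, a difference of 1.09 (SE 0.18) or 2.13-fold. Each Cpt2KO liver was above each WT liver, and the spread was wider than for Gpnmb (SD 0.33 in Cpt2KO livers and 0.22 in WT livers, n = 3 each). Another probe set of Cd14, with a lower mean, did not show this: its values were 3.93, 4.01 and 3.86 in Cpt2KO livers, against 3.60, 3.69 and 4.59 in WT livers. With the mean of both probe sets the difference fell to 0.53, and Cd14 was no longer past the threshold.

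Among partners of CD14 in Toll-like receptor signalling, 2 of 18 measured genes rose and 0 fell by limma, with a median log2 fold change of -0.05. Those that rose were Tlr5, the flagellin receptor, by 0.84 (adjusted p = 0.00163 by limma) and Irak2, a kinase below the receptors, by 0.59 (adjusted p = 0.0183 by limma). Irak2 lost the call without Cpt2KO replicate 2 or 3, without WT replicate 2 or 3, and with the replicate block. Tlr4 itself had log2 values of 2.77, 2.56 and 2.82 in Cpt2KO livers, against 2.88, 2.89 and 2.82 in WT livers. Those groups overlapped. Its co-receptor Ly96 was at 6.30, 5.90 and 6.06 in Cpt2KO livers and at 5.84, 5.95 and 5.63 in WT livers, which also overlap.

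Cd9 encodes a tetraspanin, a membrane protein that organises other surface proteins. Its log2 values were 5.94, 5.62 and 5.46 in Cpt2KO livers, against 4.99, 4.89 and 5.02 in WT livers, a difference of 0.70 (SE 0.13). The groups did not overlap, but the gap between them was smaller than for the other members that were higher, Mmp12 aside. Its other probe set had values of 2.94, 3.05 and 2.74 in Cpt2KO livers, against 2.94, 2.89 and 3.39 in WT livers, which overlap. Averaging both gave 0.27. Cd9 was no longer past the threshold with the averaged probe sets, with every probe set tested, with listed age as a covariate or without WT replicate 2.

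Of 21 other tetraspanins, 3 rose and 1 fell by limma, with a median log2 fold change of -0.02. Cd63, a lysosomal tetraspanin also counted among macrophage lipid genes, rose by 0.90 (adjusted p = 0.00325 by limma), with 8.58, 8.78 and 8.87 in Cpt2KO livers, against 7.80, 8.03 and 7.71 in WT livers. Tspan13 rose by 0.62 and Tspan31 by 0.56 (adjusted p = 0.0413 and 0.0277 by limma), and these 2 lost the call in 5 and 4 of the 6 fits without 1 array. The member that fell was Tspan4 (-0.50), which lost the call in 5 of those 6.

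Cd68 encodes macrosialin, a heavily glycosylated protein of late endosomes and lysosomes that is widely used to stain macrophages. Its log2 values were 9.24, 8.54 and 8.98 in Cpt2KO livers, against 6.80, 6.68 and 6.34 in WT livers. The groups were separate, with a mean difference of 2.32 (SE 0.19) or 4.98-fold. The order of the Cpt2KO arrays was that of Gpnmb and Cd14, with replicate 1 highest and replicate 2 lowest. Leaving out 1 array at a time gave 2.15 to 2.51.

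Neighbouring genes were looked up after the members' values were seen. In the RefSeq annotation Cd68 lies between Mpdu1 and Eif4a1, with 765 bases between Cd68 and Eif4a1, a translation initiation helicase, and 1563 bases between Cd68 and Mpdu1. Eif4a1 was higher by 0.57 (adjusted p = 0.0163 by limma) and Mpdu1 by 0.40 (adjusted p = 0.0343 by limma), both by less than Cd68. Eif4a1 lost the call with the mean of its probe sets and without WT replicate 2 or 3, and Mpdu1 in each of the 6 fits without 1 array. Of the other members, Atp6v0d2 had a neighbour past the threshold, the vitamin E transfer protein gene Ttpa, which fell by 0.76 (adjusted p = 0.00394 by limma). Whether signal from neighbours enters the members' probe sets was not tested.

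Atp6v0d2 encodes the d2 subunit of the membrane sector of the V-ATPase, the pump that acidifies lysosomes, and is known from osteoclasts and macrophages. It went the opposite way to Gpnmb, with log2 values of 3.21, 3.27 and 3.37 in Cpt2KO livers, against 5.04, 4.40 and 4.54 in WT livers. The groups did not overlap, and the mean difference was -1.37 (SE 0.16). The Cpt2KO values lay below the median level of genes, 4.12, so the size of the drop is uncertain without detection calls. Leaving out 1 array at a time gave -1.50 to -1.18, and with listed age as a covariate it was -1.11 (SE 0.35).

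Most other subunits of the pump had a mean difference above 0. Of 22 measured subunits and accessory proteins, 4 rose and 0 fell by limma, beside 4.74% and 3.49% of all genes. A mean difference above 0 was found in 16, beside 48% of all genes, and the list median was 0.12. The largest increases were those of Atp6v1b2 (0.73, adjusted p = 0.00194), Atp6v1e1 (0.70, adjusted p = 0.0121) and Atp6v0b (0.66, adjusted p = 0.0131), all by limma. With the mean of its probe sets Atp6v1b2 kept the call, but its difference fell to 0.42 (adjusted p = 0.0328 by limma). Atp6v1e1 lost the call without WT replicate 2 or 3, and Atp6v0b without WT replicate 1 or 3. Atp6v0d1, the widely expressed form of the same d subunit, had log2 values of 3.02, 3.08 and 2.96 in Cpt2KO livers, against 3.08, 3.17 and 3.05 in WT livers. Those groups overlapped. The values lay near the median of all deposited values, 2.88, so a change in Atp6v0d1 could go unseen. Tcirg1, the a3 subunit used by osteoclasts, had log2 values of 5.91, 6.18 and 6.01 in Cpt2KO livers, against 6.33, 6.47 and 6.50 in WT livers. All 3 Cpt2KO livers were below all 3 WT livers, with a difference of -0.40 that did not pass over all genes (adjusted p = 0.0602 by limma). It passed as lower over genes above the 25th percentile (adjusted p = 0.0451 by limma) or above the median level, with a trend and robust prior, and with array weights.

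Lgals3 encodes galectin 3, a secreted sugar-binding lectin that also coats damaged lysosomes. Its log2 values were 5.81, 5.97 and 6.00 in Cpt2KO livers, against 4.79, 4.69 and 4.48 in WT livers, a difference of 1.27 (SE 0.12) or 2.42-fold. Each Cpt2KO liver was above each WT liver. The order of its Cpt2KO arrays differed from that of Gpnmb, since replicate 1 was the lowest. Of 8 other galectin genes measured, Lgals4 rose by 0.62 (adjusted p = 0.0174 by limma, lost without WT replicate 1 or 3) and 7 did not pass. Lgals1, the galectin that shares many ligands with Lgals3, had a difference of 0.03 (SE 0.13).

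Mmp12 encodes macrophage elastase, a secreted protease of elastin. Its log2 values were 2.92, 2.88 and 2.85 in Cpt2KO livers, against 2.69, 2.70 and 2.77 in WT livers. The groups did not overlap, yet the difference was 0.16 (SE 0.09), and all 6 values lay near the median of all deposited values, 2.88. In that range the RMA summary used by the submitters compresses differences, and without detection calls no level can be called above or below background. Of 19 other metalloproteinases and inhibitors, 0 rose and 1 fell by limma: Mmp19, whose product cleaves basement membrane proteins, was lower by 0.95 (fold change 0.516, adjusted p = 0.00243).

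Counted together, the groups did not overlap in 6 members on the higher side and in 1 on the lower side. Over all genes the shares were 13.9% and 11.1% (25.1% in all). Replicate 1 was the highest of the Cpt2KO arrays in 6 of the 8 members and the lowest in 2, Lgals3 and Atp6v0d2. Without it the median over the members was 0.75. In WT livers the highest array was replicate 1 in 4 members, replicate 2 in 2 and replicate 3 in 2. The members thus did not share 1 order of arrays within a genotype.

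**Figure D2:**
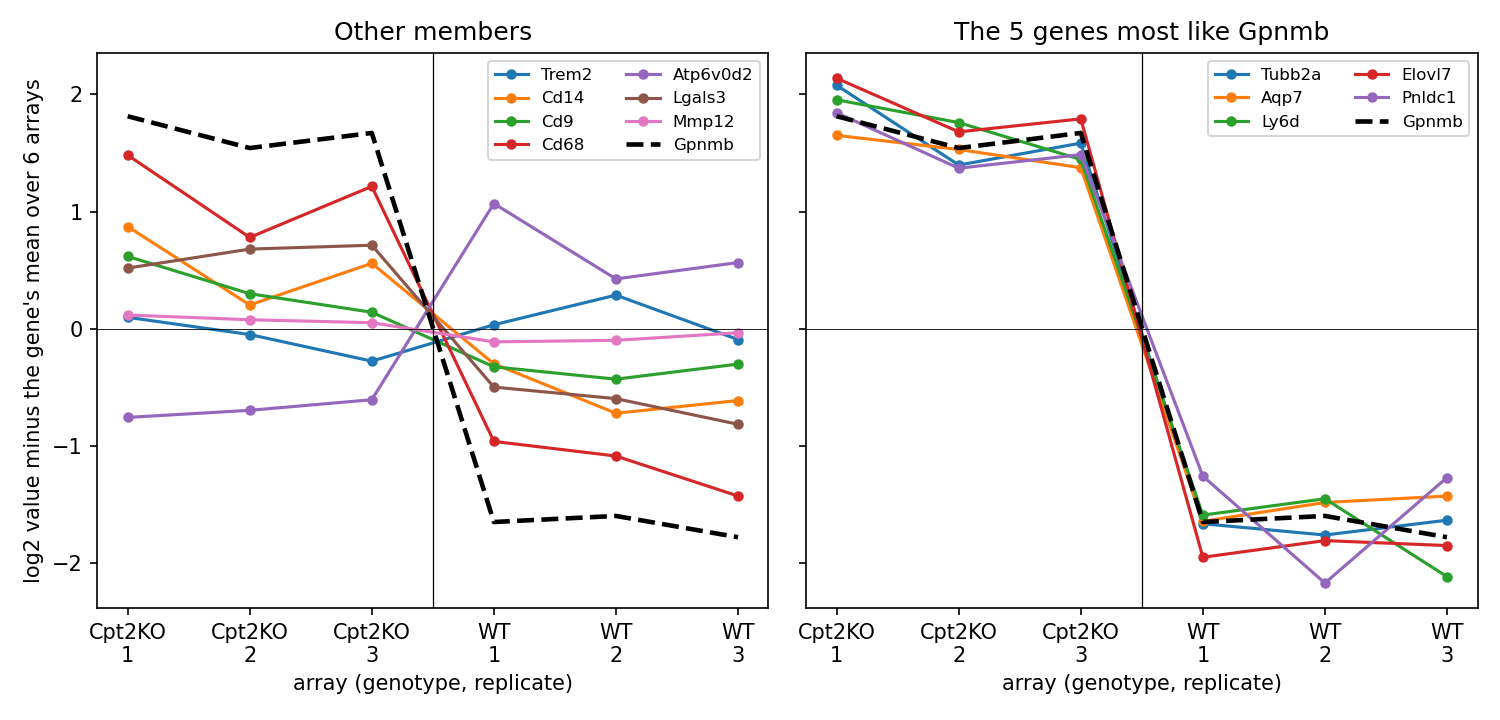
Log2 value minus the gene's own mean over the 6 arrays (y axis), for each Cpt2KO array and then each WT array (x axis). The left panel shows the other 7 measured members and the right panel the 5 genes whose profile is nearest to that of Gpnmb (dashed black in both). Cd68 comes nearest among the members, Trem2 and Mmp12 stay near 0, and Atp6v0d2 runs the opposite way.

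Likeness to Gpnmb was measured as the root mean square difference over the 6 arrays between profiles, each with its own mean subtracted, so that a small value means a change of the same size in the same arrays. The 5 nearest named genes were the tubulin Tubb2a (0.16 on the log2 scale), the glycerol channel Aqp7 (0.20), the surface antigen Ly6d (0.21), the fatty acid elongase Elovl7 (0.22) and Pnldc1 (0.37), the gene of a ribonuclease that trims small RNAs in germ cells. None of these belongs to the macrophage lists used here. Among 20241 genes other than Gpnmb, Cd68 ranked 12 with a difference of 0.54, Lgals3 ranked 93, Cd14 160 and Cd9 416. Mmp12 ranked 3955, Trem2 15808 and Atp6v0d2 20132. The measure is led by the size of the genotype difference, which chose the members, and is a description.

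A further list of 28 genes known from lipid-associated macrophages, of which 27 were measured, went partly with Gpnmb. By limma 7 rose and 0 fell, and 20 did not pass, with a list median of 0.03 on the log2 scale. Cd36, a fatty acid and lipoprotein scavenger receptor, was higher by 1.58 (adjusted p = 0.000692), with values of 6.63, 6.71 and 7.08 in Cpt2KO livers, against 5.46, 5.15 and 5.06 in WT livers. Plin2, which coats lipid droplets, was higher by 1.18 (adjusted p = 0.000227), and Lipa, the lysosomal acid lipase, by 0.91 (adjusted p = 0.00538), both by limma. Hepatocytes also make these 3 products.

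Of the other genes of this list that rose, Cd63 is given above, and Cstb, Fabp4 and Ctsz are named after their values were seen. The cathepsin inhibitor Cstb rose by 0.68 (adjusted p = 0.00619 by limma) and the lysosomal cathepsin Ctsz by 0.62 (adjusted p = 0.00388 by limma). Fabp4, the fatty acid-binding protein of fat cells and macrophages, rose by 0.65 (adjusted p = 0.00535 by limma), with 4.32, 4.45 and 4.36 in Cpt2KO livers, against 3.84, 3.70 and 3.65 in WT livers. Other genes that define the state in macrophages did not pass: the difference was 0.02 for Lpl, lipoprotein lipase, -0.11 for Fabp5, -0.01 for Clec7a and -0.23 for Cst7. The 7 genes that rose also kept the call in each fit without 1 array.

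**Figure D3:**
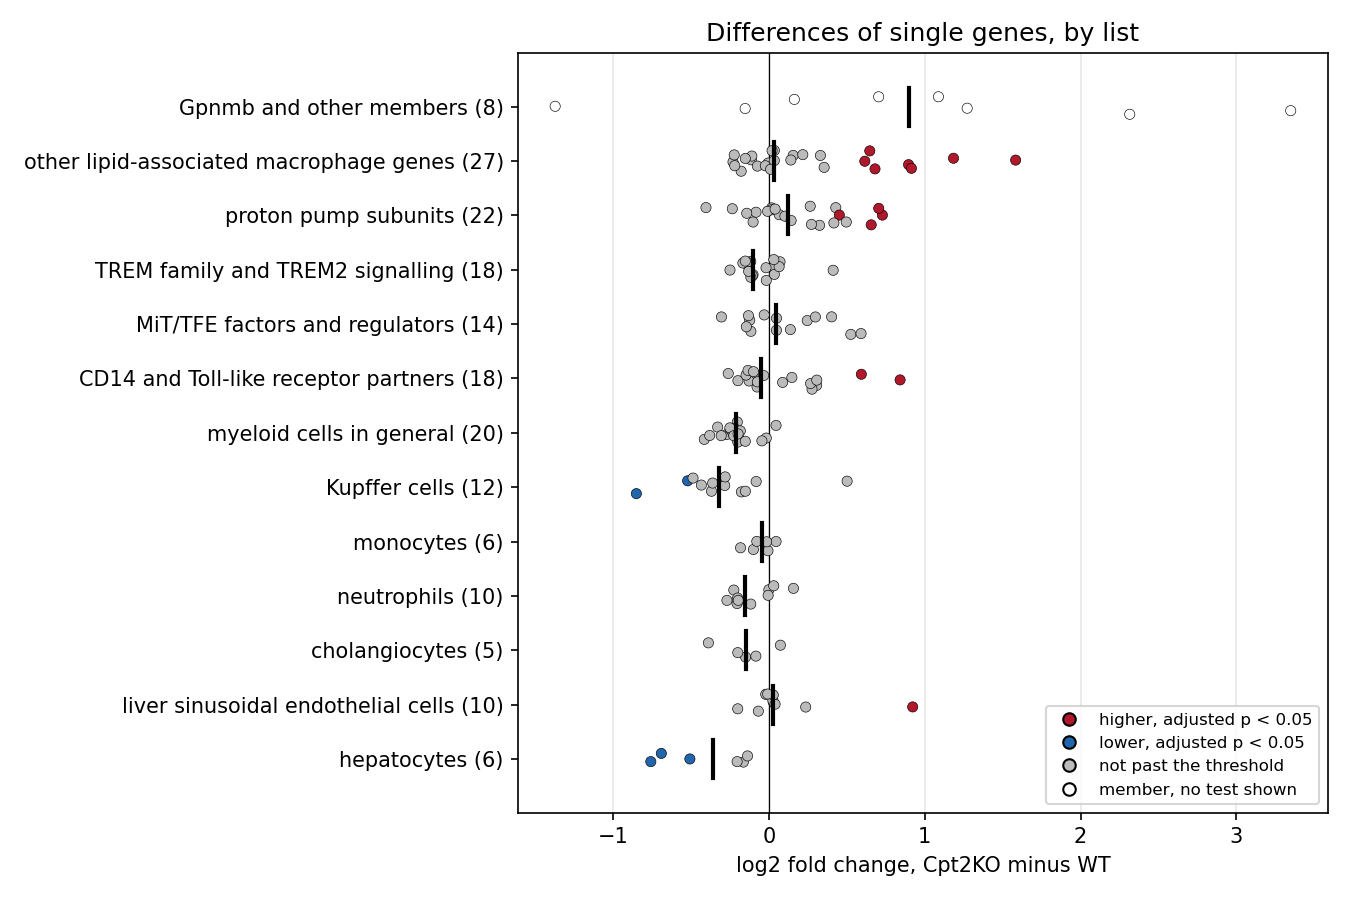
Log2 fold change, Cpt2KO minus WT (x axis), of each gene in the members and in 12 of the further lists (y axis, measured genes in brackets). Each point is a gene, coloured by the limma test over all genes except for the members, which are open, and black bars are list medians. Members spread from -1.37 to 3.35, while the general myeloid and Kupffer cell markers lie mostly below 0.

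General markers of myeloid cells did not rise with Gpnmb. Of 20 measured, 0 passed by limma in either direction (5 at an unadjusted p under 0.05, all lower), 19 had a mean difference below 0, and the median log2 fold change was -0.21. Their summed linear signal ranged from 1015 to 1047 in Cpt2KO livers and from 1060 to 1367 in WT livers. Adgre1, which encodes the macrophage antigen F4/80, had log2 values of 5.24, 4.92 and 5.26 in Cpt2KO livers, against 5.91, 5.42 and 5.34 in WT livers. These did not overlap, with a difference of -0.41 (adjusted p = 0.217 by limma). Csf1r, the receptor macrophages need to survive, had a difference of -0.33 (adjusted p = 0.11 by limma), and Ptprc, the common leukocyte antigen, -0.20 (adjusted p = 0.469 by limma). In bulk tissue, fewer cells of a type and less RNA per cell cannot be told apart.

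Kupffer cells are the resident macrophages of the liver. Of their 12 markers, 2 fell and 0 rose by limma, 11 had a mean difference below 0, and the median was -0.32. At an unadjusted p under 0.05, 6 were lower and 1 was higher. The higher one was Id3, with a difference of 0.50 and no overlap between groups (adjusted p = 0.134 by limma). C6, a complement gene that mouse Kupffer cells express, was lower by 0.85 (adjusted p = 0.021) and the scavenger receptor Marco by 0.52 (adjusted p = 0.0344), both by limma. C6 lost the call in 3 and Marco in 5 of the 6 fits without 1 array, and C6 is also made by hepatocytes. The defining markers Clec4f and Timd4 had differences of -0.28 (adjusted p = 0.209) and -0.49 (adjusted p = 0.145) by limma. The summed linear signal of the list was 1150 to 1305 in Cpt2KO livers and 1355 to 1668 in WT livers.

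Markers of other leukocytes gave no call. By limma 0 genes passed among 6 markers of monocytes, 10 of neutrophils, 7 of dendritic cells and 10 of T, NK and B cells, and 0 of them had an unadjusted p under 0.05. Their medians were -0.05, -0.16, -0.05 and -0.05 on the log2 scale. Some of these markers were dim. Both group means lay below 2.88, the median of all deposited values, for 3 monocyte, 2 neutrophil and 3 T, NK and B cell markers. Among the dendritic cell markers this held for 0. Without detection calls, a change in the dim markers could go unseen. The summed linear signal of the monocyte markers was 39.6 to 47.0 in Cpt2KO livers and 45.3 to 46.1 in WT livers, which overlap. The markers with the largest differences were Plac8 (-0.18), Csf3r (-0.27), Xcr1 (-0.26) and Cd79a (-0.20). Whole-liver values do not give the cell source of the members, which was not tested, so they are referred to here by gene and not as a macrophage population.

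Cell types that can make some of the members were read in the same way. Of 5 cholangiocyte markers, 0 passed by limma (1 at an unadjusted p under 0.05, lower), with Sox9 at -0.39 (adjusted p = 0.173 by limma), and their summed signal was 58.3 to 74.5 in Cpt2KO livers and 75.8 to 85.0 in WT livers. Of 12 stellate cell and fibroblast markers, 0 passed by limma and 0 had an unadjusted p under 0.05, with Reln at -0.21. Among 10 markers of liver sinusoidal endothelium, Lyve1, a hyaluronan receptor that some macrophages share, rose by 0.92 (adjusted p = 0.00183 by limma), and 9 did not pass. Of 6 hepatocyte markers, 3 fell by limma, Fgb by 0.76, Alb by 0.69 and Ttr by 0.51 (adjusted p = 0.00176, 0.00972 and 0.0362). Ttr lost the call after quantile normalization, after centring and in 5 of the 6 fits without 1 array. Alb, the hepatocyte product that marks the tissue, had log2 values of 11.23, 11.26 and 11.57 in Cpt2KO livers, against 12.11, 12.08 and 11.94 in WT livers. Hepatocyte markers thus differed between the same groups as the members, and their part in the members' differences was not tested.

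Proteins that bind the products of the set were also read. Of 12 measured genes for receptors of osteopontin and GPNMB and for the GPNMB relative PMEL, 0 rose and 1 fell by limma. Sdc4, a heparan sulfate proteoglycan that binds GPNMB on T cells, was lower by 0.96 (adjusted p = 0.00354 by limma), with 8.11, 8.24 and 8.39 in Cpt2KO livers, against 9.19, 9.44 and 9.01 in WT livers. Cd44, which binds osteopontin and GPNMB, had a difference of 0.01 (SE 0.14). Of 6 leukocyte integrin genes, relatives and partners of Itgax, 0 passed by limma (2 at an unadjusted p under 0.05) and all 6 had a mean difference below 0. Itgb7 (-0.27) was the largest, and Itgb2, the beta chain that pairs with Itgax, was at -0.09.

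Genes for the factors that switch on Gpnmb in other settings gave no call over all genes, and 1 or 2 under some alternatives. Of 14 measured genes for MiT/TFE factors and the GTPases and scaffold that hold them at the lysosome, 0 passed by limma, although 5 higher and 1 lower had an unadjusted p under 0.05, and the median was 0.05. Rragd, a GTPase gene and itself a target of these factors, had the largest difference, 0.59 (adjusted p = 0.0959 by limma), with a mean of 3.83 ± 0.33 in Cpt2KO livers and 3.24 ± 0.21 in WT livers (SD, n = 3 each). These groups did not overlap. Rragd passed with array weights (adjusted p = 0.0478 by limma). Flcn, which encodes folliculin, a regulator of these GTPases, had a difference of 0.53 (adjusted p = 0.0681 by limma). Flcn passed over genes above the 25th percentile (adjusted p = 0.0492 by limma) or above the median level, with the replicate block and without Cpt2KO replicate 1. Tfe3 had a difference of 0.30 (adjusted p = 0.092 by limma) and passed over genes above the median level (adjusted p = 0.0479 by limma). Tfeb had a difference of -0.12 and Mitf of 0.05.

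**Figure D4:**
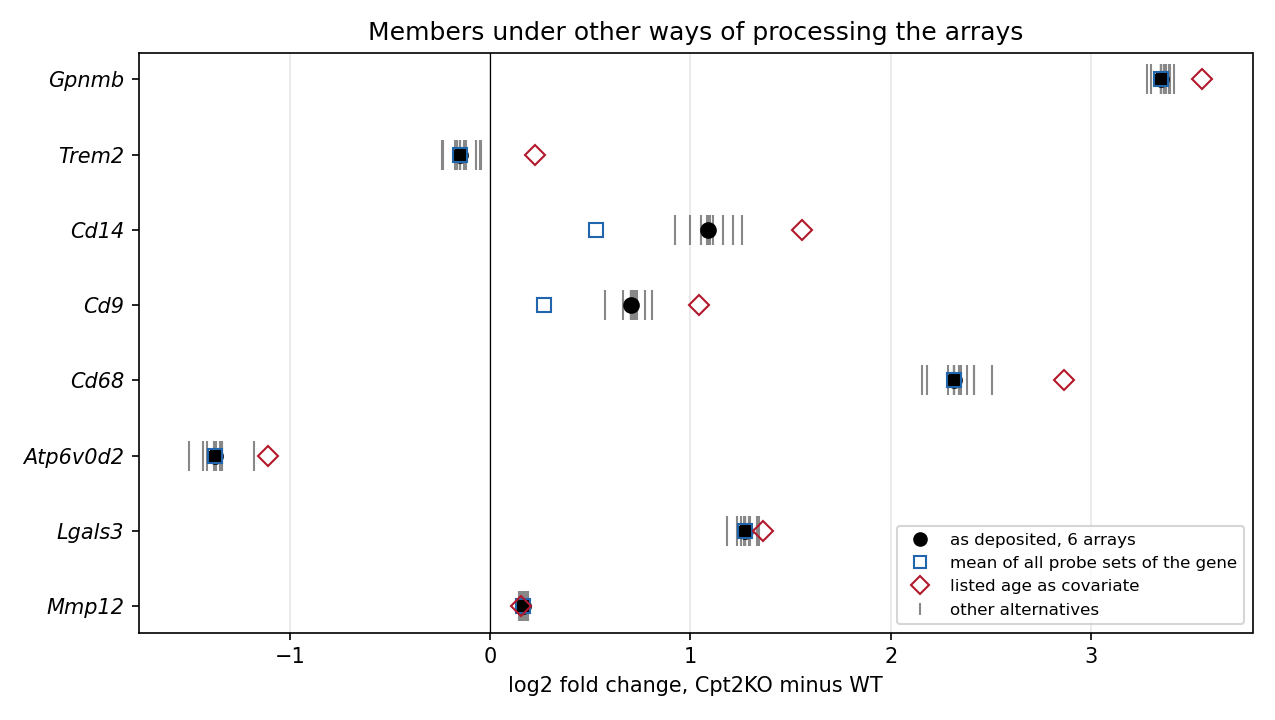
Log2 fold change, Cpt2KO minus WT (x axis), of each member (y axis) as deposited with 6 arrays (black), with the mean of all probe sets of the gene (blue squares), with listed age as a covariate (red diamonds) and under the other alternatives (grey ticks). Gpnmb and Cd68 stay above 2, Cd14 and Cd9 move to 0.53 and 0.27 with both their probe sets, and Trem2 is at 0.22 with listed age.

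Listed age could not be separated from the order of the samples, since it rises with replicate number within each genotype. It also did not overlap between genotypes (9 to 11 weeks in WT and 12 to 14 weeks in Cpt2KO mice). The covariate thus goes largely with genotype, and the SE of the genotype difference widened with it, for Gpnmb from 0.11 to 0.23. Calls lost in that fit therefore cannot be assigned to age or to genotype. The slope within genotype was between -0.18 and 0.00 on the log2 scale per listed week for the 8 members, steepest for Cd68 (-0.18, SE 0.11). With listed age as a covariate, Gpnmb and Cd68 were the members still past the threshold, and their differences were larger than without it (3.55 and 2.87). The further list genes named above as risen or fallen lost the call in that fit, as did Eif4a1, Mpdu1 and Ttpa. All of these but Cd36 and Plin2 also lost it where all 115050 probe sets were tested together.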

How the data were processed

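Deposited log2 values from 6 arrays, 1 per mouse, were used. The authors made these log2 values with Partek and RMA, with mouse build mm9, per the submitters' processing notes; no options or versions are given in the sources used here. RMA corrects background, normalizes between arrays and reduces the probes of a set to 1 value. Array medians ran from 2.78 to 2.93. The number of arrays, 3 per group, limits the precision. Of 115050 probe sets, 25469 named 1 gene, 2286 several and 87295 none.

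Cpt2KO and WT livers were compared by the moderated test of limma 3.58.1, run in R 4.3.3 without covariates or a filter on dim genes (two-sided, 4 residual and 4.23 prior degrees of freedom), with Benjamini-Hochberg adjustment over 20242 genes and a threshold of 0.05. The fit was tested on simulated data. Among 67 genes given a log2 shift of 0.5, 10 passed the threshold. For a shift of 1 the count was 54 of 67, and for a shift of 2 it was 64 of 66. Among 20042 genes left without a shift, 5 passed. Most simulated shifts of 0.5 were thus missed. The simulation shifted 200 genes, whereas 1667 passed in the data, so the adjusted threshold was stricter in the simulation. Recovery in the data may be higher and was not measured. A list with 0 genes past the threshold can still hold changes near 0.5. SE is that of the moderated fit, and SD that between arrays. Summed signals add 2 to the power of the log2 values. Of each of the 20 further lists, up to 3 genes past the threshold with the largest change were named, or else the gene with the largest change. Relatives, partners and defining markers were named whatever their values. The members and lists were chosen with earlier results of these data known. Replicate numbers were not taken to pair the samples (correlations of same-numbered deviations 0.07, 0.18 and -0.08). For Cpt2KO replicates 1 and 2, though not 3, the same-numbered WT array gave the highest correlation, and so few arrays cannot settle pairing. Alternatives were other normalizations, filters, probe set rules, priors, weights, listed age, a replicate block and leaving out each array.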

Additional observations from a re-analysis of the deposited data

How the results depend on the processing

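Gene counts past the threshold were 1667 as fitted, 367 with every probe set tested, 83 with listed age as a covariate and 1036 to 1305 without 1 array, lowest without WT replicates 2 and 3 (1036 and 1059). The replicate block gave 1384 genes and left the same 6 members past the threshold. Since the numbers were not taken to pair the samples, it is a check only. Members past the threshold numbered 6, against 4 with the mean of all probe sets (Gpnmb, Cd68, Lgals3 and Atp6v0d2), 3 with every probe set tested (Gpnmb, Cd68 and Lgals3), 2 with listed age (Gpnmb and Cd68) and 5 to 6 without 1 array. The members' median was 0.90, and moved to 1.09 over genes above the 25th percentile (7 members left), 1.27 above the median level (5 left), 0.40 with the mean of all probe sets and 1.20 with listed age, and lay between 0.75 and 0.99 without 1 array. Of 124 values of single members under the alternatives, 116 moved by less than the spread between arrays, and of 640 counts in the further lists 582 stayed within 1.5 times. Filters, the other prior, the replicate block and testing every probe set leave a member's difference unchanged by design. Many list counts were 0 both as fitted and under an alternative. Both tallies thus overstate how stable the results are. No detection calls were used, so dim genes such as Mmp12, Tlr4 and Trem2 have no stated lower limit. Whole-liver RNA assigns no gene to a cell type.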
